A study of Mus musculus with 18 samples.

Results

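Expression of 10 genes of the Wnt pathway was followed in the kidneys of adult mouse offspring whose mothers had eaten a low or a normal protein diet. The genes are the ligands *Wnt4*, *Wnt5a*, *Wnt7b*, and *Wnt9b*, the secreted inhibitor *Sfrp1*, the signal transducers *Dvl2*, *Dvl3*, and *Ctnnb1*, and the target genes *Axin2* and *Lef1*. They were chosen by name, for their place in the pathway and with earlier results of these data known. They are 10 of the 78239 genes counted in each library. Another 104 genes of the pathway, in 9 lists by role, were taken as a frame. Among them is *Dvl1*, the remaining Dishevelled, whose call between diets in males is given below.

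Kidneys came from WT outbred CD-1 mice aged 6 wk, with 1 RNA library per mouse from a piece of the left kidney. The low protein (LP) groups, 5 males and 5 females, were born to dams fed 8% protein through gestation and lactation. The normal protein (NP) groups, 5 males and 3 females, were born to dams fed 18% protein. All offspring ate the NP diet after weaning, and all 18 mice had been injected with cationic ferritin, a glomerular tracer for imaging. Male kidneys were taken 90 min and female kidneys 24 h after the final dose of ferritin, so sex and this interval cannot be told apart in any difference between males and females. The diet was given to the dams, and which mice were littermates is not given in the sources used here. In reply to reviewers the authors gave fewer litters for the adult mice than there are mice per diet here. Some of these mice therefore shared a litter. The p-values therefore measure the spread between mice, not between litters. Those for diet would be too small if littermates were alike.

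Wnt proteins are secreted, lipid-modified ligands that bind Frizzled receptors and are relayed in the cell by Dishevelled proteins. In the canonical branch the signal frees β-catenin, the product of *Ctnnb1*, from a destruction complex built on Axin, and β-catenin then turns on genes with TCF and LEF factors. In the developing kidney, Wnt9b from the ureteric bud starts nephron formation, Wnt4 drives the turn of mesenchyme into epithelium, and Wnt7b from the collecting duct is needed for the medulla to form. Secreted Frizzled-related proteins such as Sfrp1 bind Wnt ligands outside the cell and limit the signal.

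The files hold 14050486 to 23562411 reads assigned to genes per library. Normalized counts, which are counts divided by the library's DESeq2 size factor, are used for levels throughout. A gene was tested across the whole table where it had at least 10 counts in every library compared. In males and over both sexes together, 6 of the 10 genes met this minimum, and *Wnt4*, *Wnt9b*, *Axin2*, and *Lef1* did not. In females 8 met it, and *Axin2* and *Lef1* did not. Genes under the minimum were compared by exact permutation, and by edgeR only in alternatives with another filter or fewer libraries. Proximal tubule markers had a summed level of 6497 to 12670.0 CPM (counts scaled to the library total), so the libraries held the labelled tissue. LP female 1, LP female 2, and NP female 3 stood apart from the other females in an earlier analysis of these data. Their 6 interferon marker genes summed to 107.6, 138.8, and 76.6 CPM, against 692 to 2987 CPM in the other females. For 5 glucocorticoid marker genes the sums were 236.7, 260.9, and 450.4 CPM, against 962.1 to 1271 CPM. Several results that rest on females are also given without these 3 mice. The permutation test of *Lef1* and the correlations between genes were not run without them. In RNA from a piece of kidney, fewer cells of a type and less RNA per cell cannot be told apart.

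The 10 genes spanned a wide range of levels. Per kilobase of merged exons, the median normalized count over the 18 libraries was 998 for *Ctnnb1* and 369 for *Sfrp1*. It was 71.2 for *Dvl3*, 32.6 for *Wnt7b*, 31.4 for *Wnt5a*, and 20.0 for *Dvl2*. *Wnt9b* followed at 14.4, *Wnt4* at 9.14, *Axin2* at 3.04, and *Lef1* at 0.693. Over single libraries *Ctnnb1* ran from 650.4 to 1202 and *Sfrp1* from 259 to 916 on this per-kilobase scale, so these neighbours overlapped in range. *Dvl3*, from 55.9 to 83.7, lay below every *Sfrp1* value, and *Wnt7b*, from 11.9 to 60.9, reached into the range of *Dvl3*. The ranges of *Wnt7b*, *Wnt5a*, *Dvl2*, *Wnt9b*, and *Wnt4* overlapped one another.

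**Figure D1:**
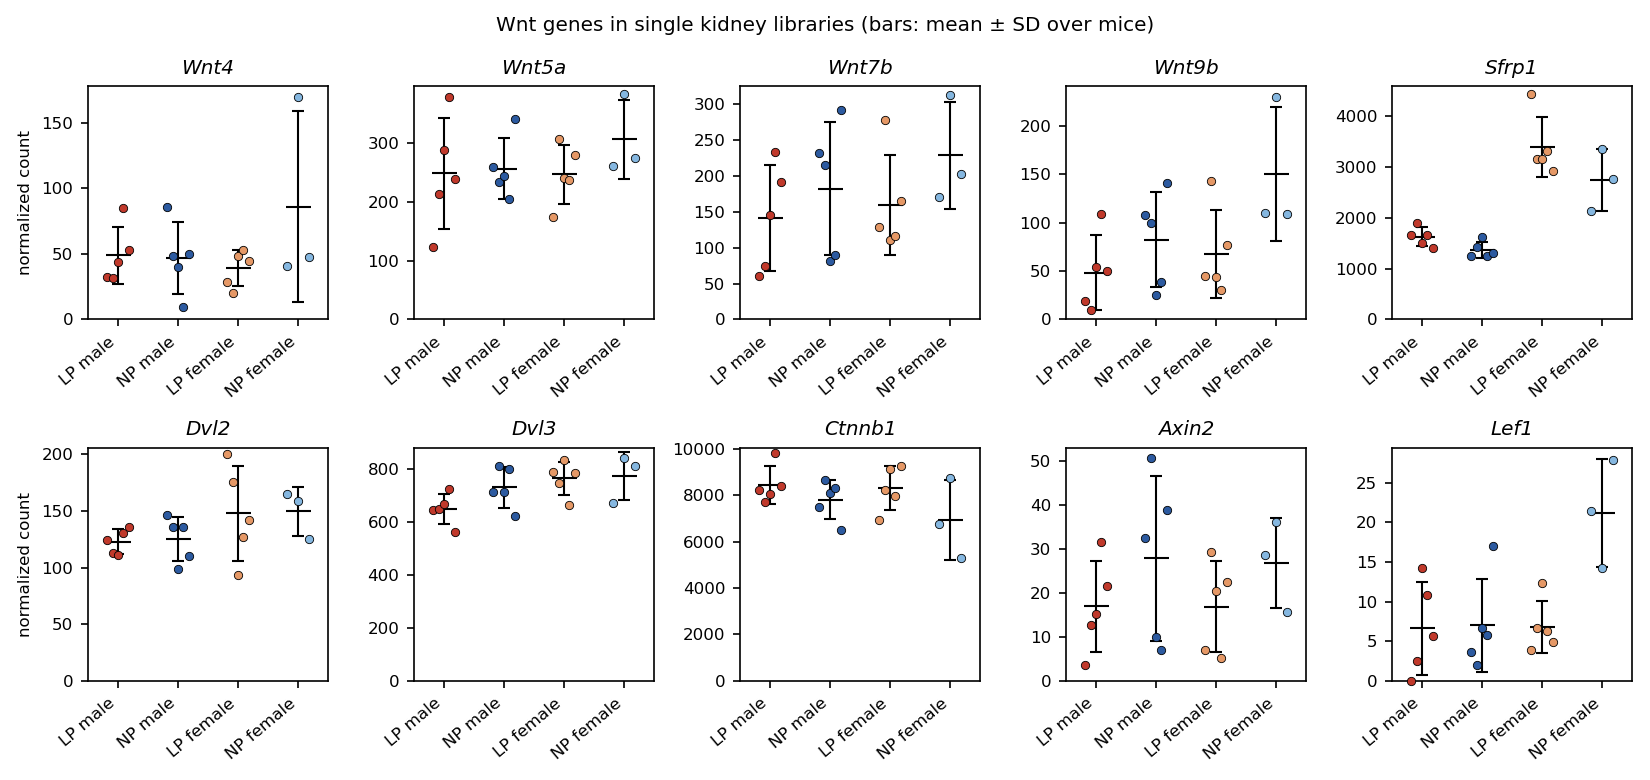
Normalized counts (y axis, linear from 0) of the 10 Wnt genes in each of the 18 libraries, by group (x axis); points are mice, bars are mean ± SD over 5, 5, 5, and 3 mice. *Sfrp1* lies between 1249.5 and 1901 in males and between 2124 and 4420.3 in females, and *Wnt9b* runs from 10.1 to 229.8 across mice of both diets.

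The clearest group difference among the 10 genes was that of *Sfrp1* (chromosome 8, 23901263 to 23939648, plus strand, GRCm39), whose RNA was lower in males than in females. In LP males 1 to 5 it had 1648, 1901, 1501, 1662, and 1402 normalized counts. In NP males 1 to 5 it had 1249.5, 1429.7, 1617, 1253, and 1294. In LP females 1 to 5 it had 4420.3, 3148, 3156, 3303, and 2908, and in NP females 1 to 3 it had 2124, 3338, and 2764. Every one of the 10 males was below every one of the 8 females, and the highest male and the lowest female were 1901 and 2124. Such a separation of the sexes was found in 8.27% of all 12665 genes tested.

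With diet in the model, *Sfrp1* differed by a log2 fold change of -1.04, males minus females (SE 0.10, adjusted p = 2.309e-07 by edgeR's quasi-likelihood test, Benjamini-Hochberg over all genes tested), or 2.05-fold higher in females. By p, *Sfrp1* was number 196 of 12665 genes. The exact two-sided permutation p was 2.285e-05, the smallest that 10 against 8 mice can give. The log2 difference was -1.003 in NP mice alone and -1.06 in LP mice alone, and it was called in each. Without LP female 1, LP female 2, and NP female 3 it was -0.97. *Sfrp1* was 1 of the 6 Wnt genes tested that was called, against 38% of all genes tested, 18.5% higher and 19.5% lower in males.

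Cell type markers also differed by sex, by permutation p-values not adjusted for the number of marker lists compared. The mean log2 CPM of 5 podocyte markers was lower in males by 0.94 (exact two-sided permutation p = 0.0001371), with summed levels of 150.3 to 256.5 CPM in males and 251.4 to 529.2 CPM in females. For 6 collecting duct principal cell markers it was lower in males by 0.48 (exact permutation p = 0.0002514), and for 5 inner medulla markers by 0.64 (exact permutation p = 0.03592). The summed levels were 379.2 to 1004 CPM against 600.8 to 1152 CPM, and 225.9 to 601.3 CPM against 242.6 to 850.7 CPM. The inner medulla markers did not move as 1, since edgeR called 1 lower and 1 higher in males and did not call 3. Of 5 collecting duct markers tested, 3 were called lower and 0 higher. Thick ascending limb markers, 4 genes, were lower in males by 0.74 (exact permutation p = 0.0009598), at 2037 to 4126 CPM in males and 2255 to 7711 CPM in females. Macrophage markers, 5 genes, were lower in males by 0.45 (exact permutation p = 0.002331), at 77.5 to 110.6 CPM against 101.8 to 160.9 CPM. Of these, edgeR called 2 lower and did not call 3, among them *Ptprc* with a log2 difference of 0.25. The mean of 5 proximal tubule markers was higher in males by 0.31 (exact permutation p = 0.01403). By edgeR only 2 of these 5 were called higher and 3 were not called, with a median log2 difference of 0.0035. Stromal markers, 7 genes of interstitial fibroblasts, ran from 99.9 to 321 CPM in males and 97.5 to 352.5 CPM in females, with *Lum* at 0 in at least 1 of the 18 libraries. With the collecting duct and inner medulla level as a covariate, the *Sfrp1* difference was -1.18 on the log2 scale. The part of podocytes, the thick ascending limb, the proximal tubule, and macrophages in it was not tested.

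None of the other tested genes passed the threshold between the sexes. *Dvl3*, a Dishevelled transducer on chromosome 16 (20335636 to 20352768, plus strand), had 564 to 813 normalized counts in males, with a median of 691, and 666 to 844 in females, with a median of 788. Its log2 difference was -0.17 (95% interval -0.33 to -0.01, adjusted p = 0.08421, edgeR), and the ranges overlapped. *Dvl2*, on chromosome 11 (69891371 to 69903127, plus strand), had a log2 difference of -0.27 (interval -0.55 to 0.02, adjusted p = 0.1364, edgeR). The exons of *Dvl2* share 1504 bases with *Acadvl* on the opposite strand, and the library was not stranded, so reads there were assigned to neither gene.

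*Ctnnb1* (chromosome 9, 120757422 to 120789579, plus strand), which encodes β-catenin, had the highest level and among the smallest spread of the 10 genes. Its normalized count was 8432 ± 819 (SD) over the 5 LP males and 7807 ± 850.0 over the 5 NP males. Over the 5 LP females it was 8303 ± 951 and over the 3 NP females 6940.5 ± 1725, where NP female 3 was lowest at 5312. Its log2 difference between the sexes was 0.09 (interval -0.11 to 0.28). The interval for *Wnt5a* was -0.47 to 0.26 and that for *Wnt7b* -0.86 to 0.38, both of which include 0. With the collecting duct and inner medulla level as a covariate, *Wnt7b* turned from -0.24 to 0.62 on the log2 scale, with an unadjusted p of 0.01672 and an adjusted p of 0.06821 in edgeR.

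**Figure D2:**
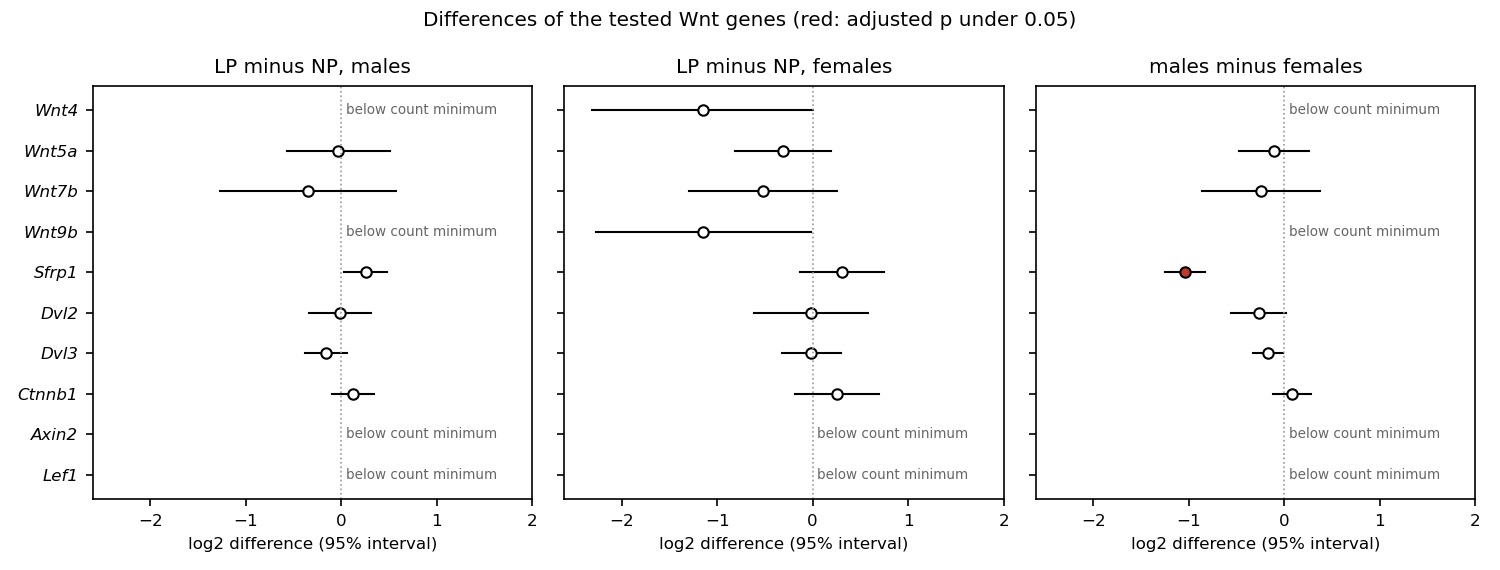
Log2 differences (x axis) of the Wnt genes (y axis) with 95% intervals from edgeR, for LP minus NP in males, LP minus NP in females, and males minus females; genes under the count minimum have no point. The single filled point is *Sfrp1* between the sexes, at -1.04, and no diet difference was called in either sex.

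The study asked whether protein restriction before weaning leaves a lasting change in kidney gene expression, in each sex. In males, none of the 6 Wnt genes tested was called between diets, where 0.0379% of the 13181 genes tested were called. *Sfrp1* had a log2 fold change of 0.26, LP minus NP (SE 0.10, unadjusted p = 0.03017, adjusted p = 0.9996, edgeR), with LP males from 1402 to 1901 and NP males from 1249.5 to 1617. These ranges overlapped, and the exact permutation p was 0.04762. Without LP male 1 and LP male 2 the difference was 0.17 with an unadjusted edgeR p of 0.183. The intervals in males were -0.57 to 0.51 for *Wnt5a*, -1.27 to 0.57 for *Wnt7b*, -0.34 to 0.31 for *Dvl2*, -0.38 to 0.06 for *Dvl3*, and -0.10 to 0.34 for *Ctnnb1*. The 4 genes under the minimum had exact permutation p of 0.2698 (*Wnt9b*) to 0.746 (*Wnt4*). Their log2 differences, LP minus NP, were -0.92 for *Wnt9b*, -0.60 for *Axin2*, -0.33 for *Lef1*, and 0.25 for *Wnt4*.

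In females, none of the 8 Wnt genes tested was called between diets, and 0% of the 13510 genes tested were called by edgeR. Without adjustment 564 genes had a p under 0.05, and DESeq2's Wald test called 9, none of them a member of the 10. All 4 ligands had lower means in LP than in NP females. In males *Wnt5a*, *Wnt7b*, and *Wnt9b* also had lower means in LP, and *Wnt4* had a higher mean. *Wnt9b*, on chromosome 11 (103618189 to 103640655, minus strand), had 45.3, 143, 43.4, 30.2, and 76.5 normalized counts in LP females 1 to 5 and 110.3, 229.8, and 109 in NP females 1 to 3. LP female 2 lay above NP females 1 and 3, so the groups overlapped. The log2 fold change was -1.15 (SE 0.50, unadjusted p = 0.04692, adjusted p = 0.8857, edgeR), with an exact permutation p of 0.07143. *Wnt4*, on chromosome 4 (137004373 to 137027037, plus strand), had 20.2 to 53.2 normalized counts in LP females and 40.9, 170.0, and 47.3 in NP females. Its edgeR log2 fold change was -1.15 with an SE of 0.51 and an adjusted p of 0.8857. *Axin2*, under the count minimum, had a log2 difference of -0.82 in females (exact permutation p = 0.2857).

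*Wnt7b* was at -0.52 (SE 0.35, unadjusted p = 0.1671, adjusted p = 0.8857, edgeR). The size of these differences depended on single mice. NP female 2 had the highest *Wnt4*, *Wnt5a*, *Wnt7b*, and *Wnt9b* levels of all 18 libraries and also the highest summed inner medulla markers, 850.7 CPM. Without it, the log2 fold change was -0.15 for *Wnt4*, -0.67 for *Wnt9b*, and -0.19 for *Wnt7b*. Without LP female 2 it was -1.60 for *Wnt9b* (unadjusted p = 0.003725, adjusted p = 0.8828, edgeR) and -0.80 for *Wnt7b* (unadjusted p = 0.01687, adjusted p = 0.8828, edgeR). Without NP female 1 it was -1.47 for *Wnt4* (unadjusted p = 0.02168, adjusted p = 0.9968, edgeR). The ligands were not called in edgeR in any of these fits. With the collecting duct and inner medulla covariate, *Wnt9b* was at -0.53 on the log2 scale. Without the 3 females that stood apart it was -1.75 (unadjusted p = 0.005844, adjusted p = 0.9724, edgeR) and *Wnt7b* was at -0.89 (unadjusted p = 0.02338, adjusted p = 0.9724). For *Wnt9b* the lowest adjusted p over the other fits with all 8 females was 0.2417, by limma-voom.

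*Lef1* (chromosome 3, 130903919 to 131018005, plus strand), a transcription factor that pairs with β-catenin and is itself a target, separated the diets in females but at few counts. LP females 1 to 5 had 3.91, 6.72, 12.4, 6.26, and 4.91 normalized counts, from 5, 8, 14, 6, and 7 reads. NP females 1 to 3 had 21.4, 14.2, and 27.9, from 21, 15, and 23 reads. The 5 LP females were all below the 3 NP females. The diet groups of 2.96% of the 13510 genes tested in females did not overlap, in either direction. That share leaves out genes under the count minimum, such as *Lef1* itself. The exact two-sided permutation p was 0.01786, the smallest 5 against 3 mice can give. Across the table with edgeR's filterByExpr in place of the count minimum, *Lef1* was at -1.59 on the log2 scale (SE 0.49, unadjusted p = 0.00945, adjusted p = 0.9059). With 1 female left out in turn the exact permutation p was 0.02857 to 0.05714, the higher value without LP female 1, 2, 4, or 5.

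No such order was seen in males, where *Lef1* had 0, 2.54, 14.2, 10.8, and 5.66 normalized counts in LP males 1 to 5 and 3.63, 2.07, 6.69, 5.84, and 17.004 in NP males 1 to 5. *Lef1* shares 1518 bases of exon with the antisense gene *Lef1os1*, and reads there were likewise assigned to neither. Of 5 T cell markers, cells that also express *Lef1*, *Cd3e*, *Cd3g*, *Cd2*, and *Lck* were each at 0 in at least 1 of the 18 libraries, and their summed level was 1.77 to 3.66 CPM in LP females and 2.21 to 3.17 CPM in NP females.

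Whether diet acted differently in males and females was tested as an interaction, which was not called for any of the 6 genes tested, against 0.0158% of 12665 genes. The interaction ran from -0.28 to 0.14 on the log2 scale, with a lowest adjusted p of 0.9771 in edgeR. By unadjusted p under 0.05, 0 of the 6 genes passed. With filterByExpr all 10 genes were tested and 0 passed, where 736 of 17382 genes did. The count was also 0 of 10 with no count minimum, where 2108 of 42285 genes passed.

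Mice of the same group differed widely in *Wnt9b*, *Wnt4*, and *Axin2*, less in *Wnt7b* and *Wnt5a*, and little in *Dvl3*. Within a group, the ratio of the highest to the lowest library was 2.11 (NP females) to 10.7 (LP males) for *Wnt9b*, 2.64 to 9.18 for *Wnt4*, and 2.29 to 8.46 for *Axin2*. It was 1.83 to 3.82 for *Wnt7b*, 1.47 to 3.08 for *Wnt5a*, 1.23 to 2.14 for *Dvl2*, and 1.25 to 1.31 for *Dvl3*. The spread between mice was not tested against the diet or sex differences. Counting error is part of this for the low genes, since *Axin2* had 3 to 49 reads per library and *Wnt9b* 8 to 242.

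*Wnt7b* (chromosome 15, 85419638 to 85466674, minus strand) had 60.9, 74.8, 145, 232, and 192 normalized counts in LP males 1 to 5 and 232, 216, 81.3, 89.9, and 292 in NP males 1 to 5. In LP females 1 to 5 it had 129, 278, 111, 117, and 164, and in NP females 1 to 3 it had 171, 312, and 203. *Wnt9b* had 18.6, 10.1, 54.0, 109, and 50.0 in LP males and 108, 99.5, 25.6, 38.5, and 141 in NP males. LP males 1 and 2 and NP males 3 and 4 were the 4 lowest males in both genes, so low libraries came from both diets. *Axin2* (chromosome 11, 108811169 to 108841609, plus strand), the Axin of the destruction complex that canonical signaling itself induces, had 3.73, 12.7, 15.2, 31.6, and 21.7 in LP males and 32.6, 50.8, 10.03, 7.01, and 39.0 in NP males. In LP females *Axin2* had 7.03, 29.4, 20.4, 5.21, and 22.5, and in NP females 28.6, 36.1, and 15.8. The same 4 males were also the lowest in *Axin2*.

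These genes moved together from mouse to mouse. After the mean of each of the 4 groups was removed from log2(normalized count + 1), *Wnt7b* and *Wnt9b* had a Pearson's r of 0.95 over 18 libraries (permutation p = 5e-05, adjusted p = 0.00375) and a Spearman's rho of 0.92 (permutation p = 6e-05, adjusted p = 0.0045). Permutations were drawn 100000 times within groups, and p-values were adjusted over 75 relations. The r was 0.94 in the 10 males, 0.96 in the 8 females, and 0.94 without LP male 1 and NP male 3, the libraries farthest out in *Wnt7b*. Without the 4 low males it was 0.93 over 14 libraries.

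*Axin2* followed both ligands. Its r with *Wnt7b* was 0.83 (rho 0.82, permutation p = 0.00031 and 0.00064, adjusted p = 0.0109 and 0.016), with 0.92 in males, 0.61 in females, and 0.77 without the 2 farthest libraries. Its r with *Wnt9b* was 0.78 (rho 0.79, permutation p = 0.0013 and 0.0011, adjusted p = 0.0124 and 0.0164), with 0.78 in males, 0.80 in females, and 0.86 without the 2 farthest libraries. Over the 14 libraries without the 4 low males, the r was 0.61 with *Wnt7b* and 0.76 with *Wnt9b*.

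*Wnt5a* (chromosome 14, 28226495 to 28249405, plus strand), a ligand best known for signaling without β-catenin, was part of the same group. It had 123 to 379 normalized counts in LP males, 206 to 342 in NP males, 174 to 307 in LP females, and 261 to 385 in NP females. Its r was 0.76 with *Wnt7b* (rho 0.79, permutation p = 0.00058 and 0.00052, adjusted p = 0.0109 and 0.016), 0.71 with *Wnt9b* (rho 0.75, permutation p = 0.0056 and 0.0018, adjusted p = 0.042 and 0.0171), and 0.73 with *Axin2* (rho 0.70, permutation p = 0.0012 and 0.0021, adjusted p = 0.0124 and 0.0172). Without LP males 1 and 4, the farthest in *Wnt5a*, these were 0.68, 0.67, and 0.61. All 6 pairs among *Wnt5a*, *Wnt7b*, *Wnt9b*, and *Axin2* had an adjusted p under 0.05, and of the other 39 pairs among the 10 genes 0 did. The r of *Wnt5a* with *Lef1* was 0.72 over all libraries, 0.88 in males, and -0.02 in females, with an adjusted p of 0.0745 by permutation.

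**Figure D3:**
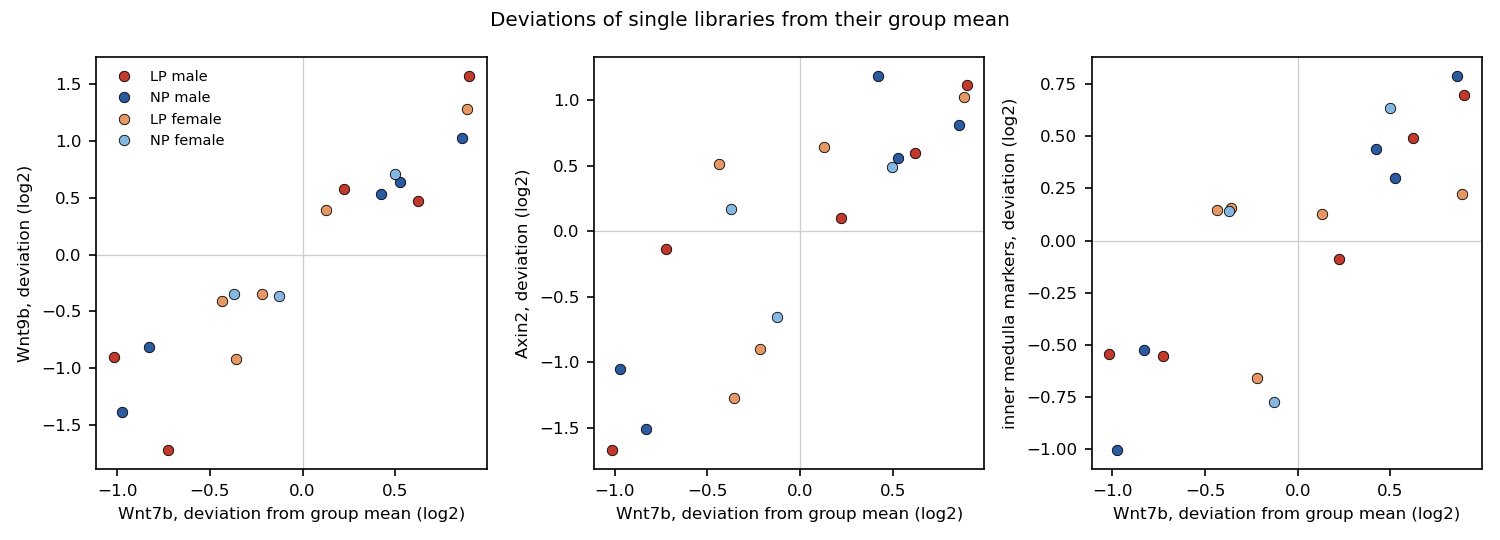
Deviation of each of the 18 libraries from its group mean (log2 scale) for *Wnt7b* (x axes) against *Wnt9b*, *Axin2*, and the mean of 5 inner medulla markers (y axes); points are mice, colored by group. *Wnt9b* follows *Wnt7b* closely in all groups (r = 0.95), *Axin2* less closely (r = 0.83), and the inner medulla markers follow it in males (r = 0.96) more than in females (r = 0.38).

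The level of inner medulla markers moved with the same genes. The 5 markers were *Slc14a2*, *Slc5a3*, *Slc6a12*, *Aqp4*, and the aldose reductase gene, which serve urea, osmolyte, and water transport in the concentrating kidney. The summed level was 312.7, 258.3, 342.7, 527.1, and 601.3 CPM in LP males 1 to 5 and 420.5, 506.3, 225.9, 312.3, and 522.2 CPM in NP males 1 to 5. The 4 males lowest in *Wnt7b* were the 4 lowest in these markers. Over 18 libraries the r with the mean log2 level of the markers was 0.81 for *Wnt7b* (rho 0.78, permutation p = 0.00088 and 0.0013, adjusted p = 0.011 and 0.0164). It was 0.78 for *Wnt9b* (rho 0.76, permutation p = 0.00076 and 0.0017, adjusted p = 0.011 and 0.0171). For *Axin2* it was 0.78 (rho 0.74, permutation p = 0.00054 and 0.0012, adjusted p = 0.0109 and 0.0164), and for *Wnt5a* 0.66 (rho 0.73, permutation p = 0.0033 and 0.0032, adjusted p = 0.0274 and 0.0238).

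Within the sexes the relation with inner medulla markers was closer in males for 3 of these genes. The r was 0.96 in males and 0.38 in females for *Wnt7b*, 0.92 and 0.43 for *Wnt9b*, 0.87 and 0.59 for *Axin2*, and 0.63 and 0.75 for *Wnt5a*. A difference between the sexes in r was not tested. Without the 2 farthest libraries the pooled values were 0.75, 0.75, 0.77, and 0.63, in the same order, and over the 14 libraries without the 4 low males they were 0.49, 0.48, 0.61, and 0.66. Collecting duct principal cell markers had an r of 0.60 with *Wnt7b* (rho 0.57, permutation p = 0.029 and 0.039), which did not hold after adjustment (adjusted p = 0.158). Each library came from a piece of kidney, and the share of medulla in each piece was not measured.

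By likeness over all 12664 other genes, on log2(CPM + 1) with group means removed, the 3 genes closest to *Wnt7b* over the 18 libraries were *Hspa1b* (r = 0.90), *Muc20* (r = 0.88), and *Slc6a12* (r = 0.88), the betaine transporter among the inner medulla markers. For *Wnt5a* they were *Sde2* (0.85), *Slc6a12* (0.83), and *Wnt7b* (0.79). *Dvl3* had as nearest *Pkd1* (0.94), *Kif13a* (0.93), and *Ago1* (0.92), and *Dvl2* had *Cdc16* (0.92), *Bcl2l2* (0.90), and *Kctd20* (0.89). *Ctnnb1* was closest to *Setbp1* (0.97), *Vcl* (0.96), and *Shroom4* (0.96), but 1.12% of all genes had an r over 0.9 with it. *Sfrp1* was closest to *Simc1* (0.88), *Ctif* (0.88), and *Rgs12* (0.86). These are descriptions over libraries that share depth and tissue composition.

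The sequences before the start sites of *Wnt9b* and *Axin2* are shown because these genes moved together and because *Axin2* is a target of TCF and LEF factors, whose sites share the core CTTTG. The RefSeq table (build GRCm38.p6) held start sites for 7 of the 10 genes. The 250 bases before the start are given 5′ to 3′ on the gene's strand, with the core on either strand (CTTTG or CAAAG) in capitals. The *Wnt9b* window is chr11:103749822-103750071 (minus strand) and the *Axin2* window is chr11:108920099-108920348 (plus strand).
Wnt9b: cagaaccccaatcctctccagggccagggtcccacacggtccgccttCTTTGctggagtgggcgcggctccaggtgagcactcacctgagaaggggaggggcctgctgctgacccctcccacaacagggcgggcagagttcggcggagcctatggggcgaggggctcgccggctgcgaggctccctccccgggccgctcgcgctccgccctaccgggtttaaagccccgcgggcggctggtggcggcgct
Axin2: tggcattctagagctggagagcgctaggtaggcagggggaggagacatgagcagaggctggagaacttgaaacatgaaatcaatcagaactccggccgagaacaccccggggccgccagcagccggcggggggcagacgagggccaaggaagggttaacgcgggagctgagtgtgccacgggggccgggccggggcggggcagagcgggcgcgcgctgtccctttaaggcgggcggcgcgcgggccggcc
The *Wnt9b* window held 1 match and the *Axin2* window 0. Of all 32851 windows of this length, 48.6% held the core on either strand, so a match in a single window is common, and so is its absence. Sites outside these 250 bases were not looked for.

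Of 104 other Wnt pathway genes, 69 were tested between the sexes, and 8 were higher and 21 lower in males. These 29 calls were 42.0% of those tested, near the 38% of all genes called, and nothing particular to the pathway is read from the count. The calls leaned to lower in males more than over all genes, where 18.5% were higher and 19.5% lower. This lean was not tested. The genes are given by role as a description. The median log2 difference of these 69 genes was -0.13, against -0.049 over all genes tested. Among 14 receptors tested, 1 was higher and 5 were lower in males. *Ror2*, a receptor for Wnt5a, had a log2 difference of -2.03 (SE 0.29, adjusted p = 2.391e-05, edgeR), *Fzd3* of -0.94, *Fzd4* of -0.60, and *Fzd7* of -0.58, while *Ryk* was higher in males by 0.36. Of 2 genes of Wnt secretion, *Porcn*, which attaches the lipid to Wnt proteins, was lower at -0.78, and *Wls*, their carrier, was at -0.03 and not called. None of 3 further ligands tested was called.

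Secreted inhibitors went both ways. *Frzb*, a relative of *Sfrp1*, was higher in males by 1.04 on the log2 scale (SE 0.18, adjusted p = 0.0001641, edgeR), opposite in direction to *Sfrp1*. *Sostdc1* (-0.66), *Dkk3* (-0.60), and *Apcdd1* (-0.996) were lower in males, and 3 of the 7 inhibitors tested were not called. Both membrane ubiquitin ligases that remove Frizzled, *Rnf43* (-0.70) and *Znrf3* (-0.36), were lower in males.

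Of 14 cytoplasmic genes tested, *Fbxw11* (0.64) and *Axin1* (0.19) were higher and *Dvl1* (-0.51) and *Csnk1e* (-0.48) lower in males. The *Dvl1* call was lost in NP mice only, where males had 1978 to 2377 normalized counts and females 1 to 3 had 2170, 2103, and 3817. It was also lost without the 3 females that stood apart. In males *Dvl1* differed by diet as well, as given below. Of 11 nuclear effectors, 3 corepressors of the Groucho family were lower in males, *Tle2* by -1.83 (SE 0.16, adjusted p = 9.624e-08, edgeR), *Tle1* by -0.78, and *Tle4* by -0.78, and *Tle3* was higher by 0.55. Of 5 target genes, *Sp5* was higher (0.52) and *Lbh* lower (-0.96) in males. In planar cell polarity, the β-catenin-independent branch, *Vangl1* (0.83) and *Invs* (0.72) were higher and *Prickle1* (-1.37), *Celsr2* (-0.62), *Celsr1* (-0.39), and *Prickle2* (-0.87) lower.

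Of these 29 calls, 9 were made in the same direction in each of 11 alternative fits. They were *Vangl1* and *Fbxw11*, higher in males, and *Tle2*, *Prickle1*, *Ror2*, *Tle1*, *Fzd4*, *Lbh*, and *Celsr2*, lower in males. With the collecting duct and inner medulla covariate 17 genes were called, 5 higher and 12 lower, all of them among the 29. The part of podocyte, thick ascending limb, proximal tubule, and macrophage marker levels, which differed by sex as given above, was not tested.

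**Figure D4:**
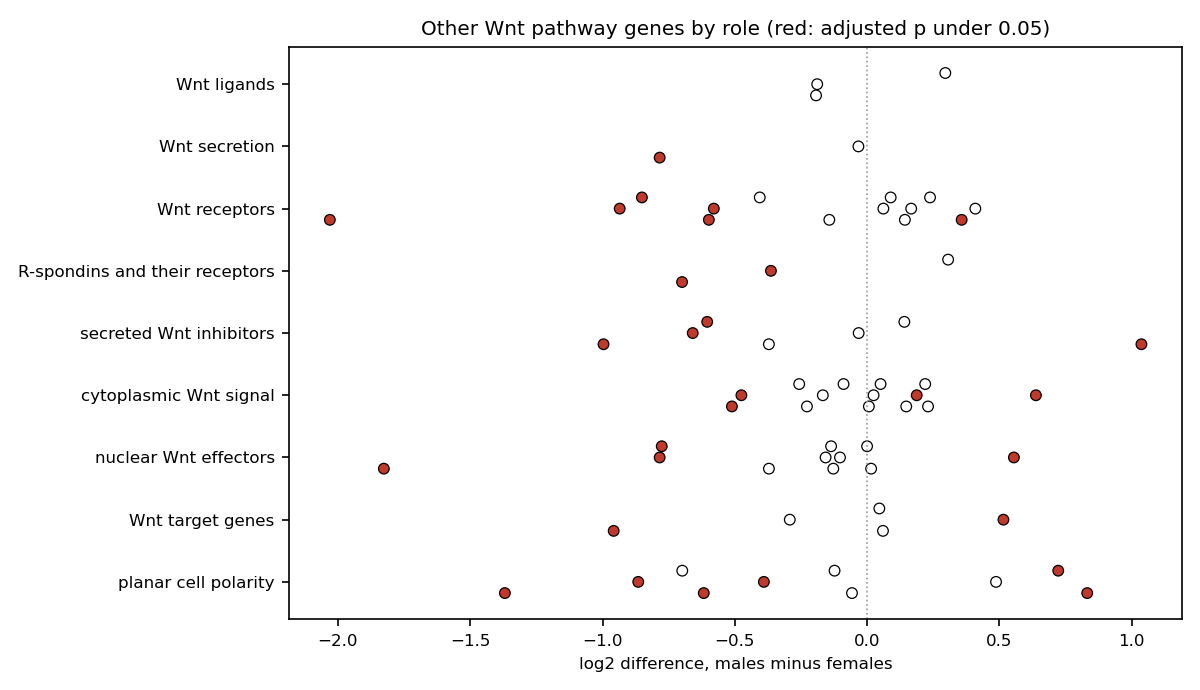
Log2 difference, males minus females (x axis), of 69 other Wnt pathway genes by role (y axis); each point is a gene, filled where the adjusted p is under 0.05, and the vertical scatter within a role has no meaning. Of the filled points 21 lie left of 0 and 8 right of it, with *Ror2* at -2.03 and *Frzb* at 1.04 at the ends.

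Between diets, 1 of 70 other pathway genes tested in males and 0 of 71 in females were called by edgeR. The called gene was *Dvl1*, the remaining Dishevelled, at -0.61 on the log2 scale, LP minus NP (SE 0.08, adjusted p = 0.02969, edgeR), and each LP male was below each NP male, as for 0.675% of genes in either direction. *Dvl2* and *Dvl3* in the same males had log2 fold changes of -0.02 and -0.16 and overlapping groups. The exons of *Dvl1* share 3495 bases with *Tas1r3* on the opposite strand, and reads there were assigned to neither gene. The exact permutation p of *Dvl1* was 0.007937, the smallest 5 against 5 mice can give, and DESeq2's Wald test also called it (adjusted p = 7.901e-10). The edgeR call was lost with the replicate block (-0.61, adjusted p = 0.2622), with all 4 groups in 1 model (-0.61, adjusted p = 0.9999), and without LP males 1 and 2 (-0.57, adjusted p = 0.663). It was also lost in 8 of 10 edgeR fits with 1 male left out, the exceptions being LP male 4 and NP male 1, while the log2 fold change stayed between -0.65 and -0.58. In females *Dvl1* was at -0.19 (interval -0.82 to 0.44), and the smallest unadjusted p was that of *Wnt11*, a ligand of the ureteric bud tip, at 0.01721 (log2 fold change -1.10, adjusted p = 0.8857, edgeR).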

How the data were processed

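Poly(A)-selected, non-directional RNA libraries of 18 kidneys were used, from 10 males (5 LP, 5 NP) and 8 females (5 LP, 3 NP). After removal of low-quality reads and adapters, the authors used STAR with the GRCm39 genome and GENCODE vM36 genes and deposited raw counts of reads per gene. The column counted without regard to strand was used. Reads not counted on a single gene, 28.6% to 36.1% per library, were left out. Positions are those of GENCODE vM39.

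A gene was tested where each library compared had at least 10 counts for it, with edgeR 4.0.16 in R 4.3.3 (quasi-likelihood test) after TMM normalization, with Benjamini-Hochberg adjustment over all genes tested. Diets were compared within each sex, and the interaction and the sex difference (with diet in the model) over all 18 libraries. Each of the 10 genes was also compared by exact two-sided permutation on log2(normalized count + 1). Levels are counts divided by DESeq2 size factors. Intervals are 95% intervals from edgeR's standard error and degrees of freedom. The scripts were tested on simulated data with known changes. Alternatives were DESeq2's size factors, no count minimum, filterByExpr, DESeq2 1.42.0 (Wald test), limma-voom (limma 3.58.1) with sample weights, a replicate block, all 4 groups in 1 model, a covariate of collecting duct and inner medulla markers, each diet alone, and leaving out libraries. Leaving out LP males 1 and 2, or the 4 males low in *Wnt7b*, and TMM-normalized counts in the permutation test were added after the data were seen. Figures were drawn with matplotlib 3.10.9.

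The 10 genes, the lists, and the tests were chosen with earlier results of these data known. Named genes are the 10, *Dvl1*, up to 5 pathway genes per list with the smallest p among those called, otherwise the 1 with the smallest unadjusted p, and the 3 genes most like each tested member. *Prickle2* and the genes called in each alternative, were named after their values were seen. Same-numbered mice did not deviate together, the median correlation across diets being -0.132 in males and -0.425 in females, and the main fits were unpaired.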

Additional observations from a re-analysis of the deposited data

Results flagged for a closer look

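*Sfrp1* in LP female 1 had 4420.3 normalized counts, against 2908 to 3303 in the other 4 LP females, a gap beyond Dixon's 95% limit for 5 mice. It was the only such case in 30 tests of the 10 genes, and chance flags about 1 in 20 such groups. Without LP female 1 the *Sfrp1* difference between the sexes was -0.97 on the log2 scale and remained called in edgeR.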

How the results depend on the processing

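No Wnt gene among the 10 was called between diets, in either sex or for the interaction, in any alternative or with any 1 mouse left out. *Sfrp1* was called between the sexes in all of them, at -1.18 to -0.97. The count called between the sexes was 2 in place of 1 with limma-voom, which added *Dvl3* (adjusted p = 0.04377), and 1 to 2 with 1 mouse left out, where *Dvl3* (without LP female 4, NP male 2, or NP female 1) or *Dvl2* (without LP female 3) was added. Of the other pathway genes, 29 were called between the sexes, 17 with the collecting duct and inner medulla covariate, 12 in NP mice only, 18 in LP mice only, and 26 to 32 with 1 mouse left out. Without the 3 females that stood apart 29 were called, 25 of them among the first 29. Of the calls given for single genes, those of *Apcdd1*, *Dvl1*, and *Tle3* between the sexes were lost in that fit. With the replicate block 25 were called, and the block changed no call among the 10. Of the calls given for single genes it removed that of *Dvl1* in males and those of *Znrf3*, *Axin1*, *Tle3*, and *Sp5* between the sexes. Over all genes, the calls between diets in males went from 5 to 19 with DESeq2 and 2 with the block.

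Some values that were not called changed sign, and the cause was not tested. As reported, *Wnt7b* was at -0.35 for diet in males and -0.24 between the sexes, and *Lef1* and *Wnt4* were at -0.33 and 0.25 for diet in males. On the log2 scale, for the diet effect in males, limma-voom gave 0.0021 for *Wnt5a*, 0.053 for *Wnt7b*, and 0.020 for *Dvl2*. Without LP males 1 and 2 these were 0.25, 0.070, and 0.020, and with the marker covariate *Dvl2* was 0.0012. For the diet effect in females, *Dvl2* was 0.022 with no count minimum, 0.0080 with filterByExpr, 0.013 with the replicate block, and 0.086 with the covariate. *Dvl3* was 0.035 with no count minimum, 0.011 with filterByExpr, 0.13 with limma-voom, 0.040 with the block, and 0.0065 without the 3 females that stood apart. Between the sexes, *Ctnnb1* was -0.0080 with limma-voom and -0.036 without those 3 females. *Axin2* was 0.090 with no count minimum and 0.064 with filterByExpr. *Wnt5a* was 0.27 and *Wnt7b* 0.62 with the covariate. *Wnt5a* was 0.0075 without LP males 1 and 2 and 0.020 in LP mice only, where *Wnt4* was 0.35. With 1 mouse left out, the diet effect in males ran from -0.23 to 0.54 for *Wnt4*, -0.71 to 0.27 for *Lef1*, -0.24 to 0.14 for *Wnt5a*, and -0.090 to 0.045 for *Dvl2*. In females it ran from -0.15 to 0.12 for *Dvl2* and -0.089 to 0.074 for *Dvl3*, and between the sexes from -0.32 to 0.11 for *Wnt4* and -0.23 to 0.22 for *Axin2*.

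Depth limits *Axin2* and *Lef1* most, with 3 to 49 and 0 to 23 reads per library. The 3 NP females limit each comparison of diets in females.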
